A study of Mus musculus with 6 samples.

Results

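The genes described are the R-spondins Rspo1, Rspo2 and Rspo3, their receptors Lgr4 and Lgr5, the ubiquitin ligases Rnf43 and Znrf3, and the Wnt deacylase Notum. These 8 genes, chosen by name, were among 18193 genes that the arrays could measure with a probe set assigned to a single gene. Together they had 13 such probe sets, and each gene was represented by the probe set with the highest mean over all arrays. The 6 arrays measured RNA of whole mouse embryos taken at embryonic day 8.5. The double knockout embryos were Fz2-/-; Fz7-/- and the single knockout embryos were Fz2+/+; Fz7-/-, with 3 arrays each. Fz2 and Fz7 are the labels' names for Fzd2 and Fzd7, which encode related Frizzled receptors for Wnt ligands. Both groups therefore lacked Fzd7, and the comparison addressed what loss of Fzd2 adds to it. All samples were of mixed sex on a C57BL6/129 mixed background. The labels give no treatment and leave unstated how many embryos made up a sample and whether litters were shared, so p-values measure only the spread of these samples, possibly a technical one.

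Wnt proteins signal through Frizzled receptors and their Lrp co-receptors at the cell surface. Rnf43 and Znrf3 are membrane ubiquitin ligases that mark Frizzled and Lrp proteins for removal from the surface, and R-spondins, bound to Lgr receptors, take these ligases away and so keep more Frizzled on the cell. Notum is a secreted enzyme that strips the lipid from Wnt proteins. Rnf43, Znrf3, Notum and, in several tissues, Lgr5 are known targets of beta-catenin, the transcriptional co-activator that Wnt signalling stabilises, and so form feedback in the pathway. At this stage of the mouse embryo canonical Wnt signalling is active in the tail end, where new mesoderm forms.

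The RefSeq table of start regions (build GRCm38.p6) held windows for 3 of the 8 genes, and these are shown because they give 1 example each of a ligand, a receptor and a ligase. Each is the 250 bases before the annotated start on the plus strand, written 5′ to 3′, with CG dinucleotides in capitals. They lie at chr4:124986180-124986429 (Rspo1), chr2:109917397-109917646 (Lgr4) and chr11:87662837-87663086 (Rnf43).
Rspo1: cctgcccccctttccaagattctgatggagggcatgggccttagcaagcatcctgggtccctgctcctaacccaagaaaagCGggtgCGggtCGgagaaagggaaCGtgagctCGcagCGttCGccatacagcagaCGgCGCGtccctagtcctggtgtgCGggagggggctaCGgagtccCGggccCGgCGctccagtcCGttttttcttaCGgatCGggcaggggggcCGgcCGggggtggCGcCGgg
Lgr4: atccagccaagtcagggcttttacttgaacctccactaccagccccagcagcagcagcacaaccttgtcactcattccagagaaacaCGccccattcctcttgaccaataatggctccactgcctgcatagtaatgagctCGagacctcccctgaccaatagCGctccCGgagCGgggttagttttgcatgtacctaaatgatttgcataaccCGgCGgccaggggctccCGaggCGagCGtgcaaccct
Rnf43: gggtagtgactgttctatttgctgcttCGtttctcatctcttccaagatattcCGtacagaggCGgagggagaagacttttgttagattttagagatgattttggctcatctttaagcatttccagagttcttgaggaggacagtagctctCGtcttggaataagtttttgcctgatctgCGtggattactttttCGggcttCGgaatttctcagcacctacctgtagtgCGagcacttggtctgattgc
The Rspo1 window held 22 CG dinucleotides, the Lgr4 window 10 and this Rnf43 window 8, against a median of 6 over the windows of all 32851 starts in the table. A second Rnf43 start had 2. The letters CTTTGA and CTTTGT, forms of the motif bound by the TCF/LEF partners of beta-catenin, were searched on both strands and were in none of the 4 windows of these genes. They were in 13.8% and 16.5% of all windows. The CCAAT box was present only in the Lgr4 window among these 4, starting 146 and 95 bases before the start, and in 33.8% of all windows. These are matches of letters and say nothing about binding.

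The Fzd2 probe set read 7.30, 7.69 and 7.63 in double knockout replicates 1, 2 and 3, against 9.86, 9.99 and 10.01 in the single knockout, on the log2 scale of the deposited values. It fell by 2.42 (SE 0.11, limma adjusted p = 0.00567), and it was the only gene of 18193 to pass an adjusted p of 0.05 in either direction. The call did not hold in every setting: it was lost when Fzd2 probe sets were averaged, when double knockout replicate 3 was left out, and when any of the 3 single knockout arrays was left out, with differences of -2.49 to -2.39 and limma adjusted p up to 0.120. Fzd7 averaged 4.89 ± 0.10 in double and 4.92 ± 0.01 in single knockout arrays (SD, n = 3 each). Whether the Fzd7 probe set lies in the deleted part was not examined here, so it checks nothing. Double knockout replicate 1 stood apart: it held 479 genes that deviated by over 1 log2 unit from the average of the remaining arrays, against 18 to 37 such genes in each of the others. Without it Fzd2 differed by -2.30 (limma adjusted p = 0.000601). The differences of the 8 genes are therefore given with and without it.

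None of the 8 genes differed between the groups by the test over all genes. Of them 4 had a higher and 4 a lower mean in the double knockout, and 0 passed the adjusted threshold in either direction, where the share of all genes called was 0.0% higher and 0.0055% lower (limma). At an unadjusted p under 0.05 there were also 0 of 8, against 4.96% of all genes (limma). Groups did not overlap for 0 of 8, against 11.4% of all genes. The median absolute difference was 0.096 log2 units over the 8 genes and 0.067 over all genes. The array number limits precision, and 5 of the 8 genes lay below the median of gene means (7.10). RMA understates differences near background, and how near to background each gene lay was not tested.

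**Figure D1:**
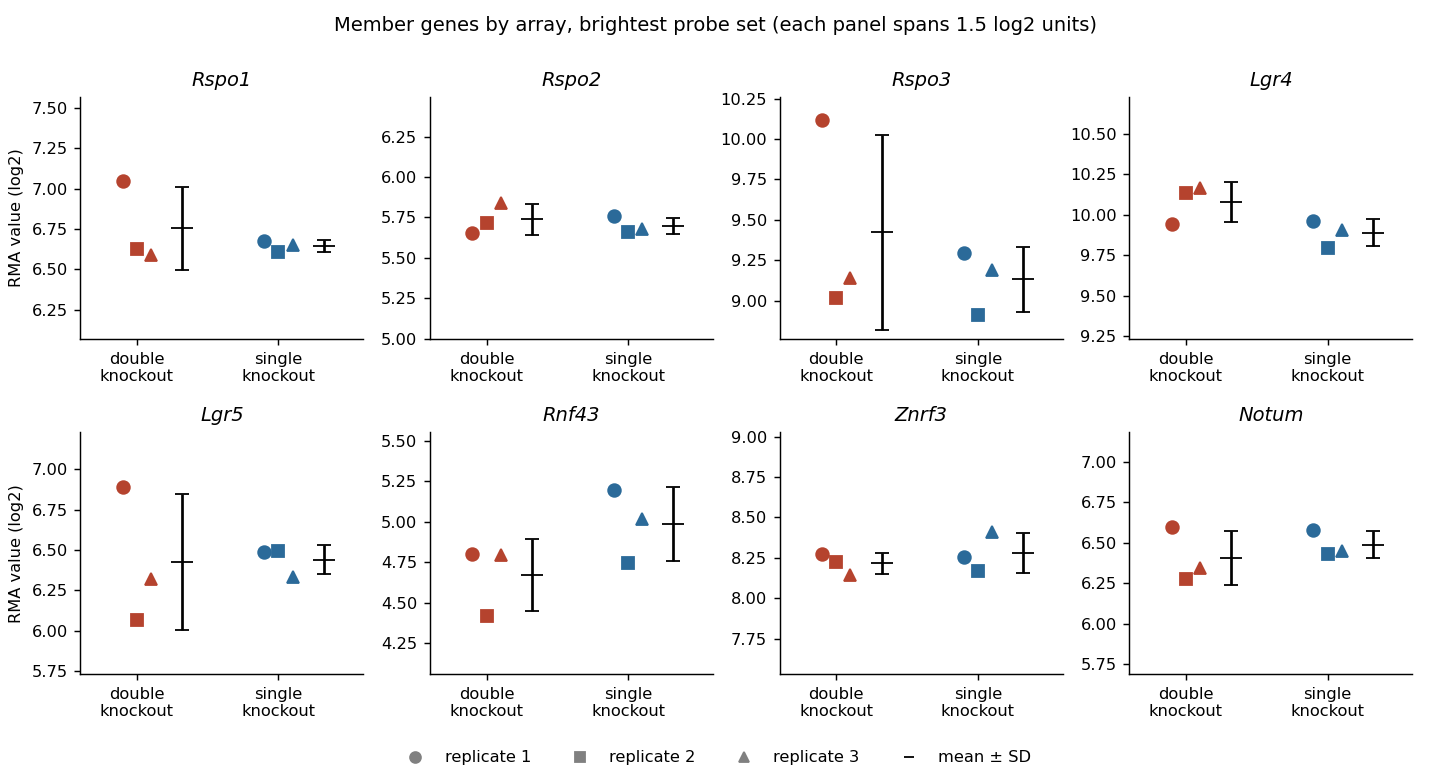
Log2 RMA value (y axis, 1.5 log2 units in every panel) of each gene's brightest probe set in the 3 double knockout and 3 single knockout arrays. Symbols mark the replicate, and bars give the mean ± SD. The groups overlap in all 8 panels. Double knockout replicate 1 lies above all other arrays for Rspo1 (7.05), Rspo3 (10.12), Lgr5 (6.89) and, narrowly, Notum (6.60).

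Among the R-spondin ligands 1 array stood apart, double knockout replicate 1, for Rspo1 and Rspo3. Rspo3, a secreted ligand needed for vessel and placenta development in the mouse, read 10.12, 9.02 and 9.14 in double knockout replicates 1, 2 and 3, against 9.29, 8.91 and 9.19 in the single knockout. On this brighter probe set replicate 1 alone was high, and the other double knockout arrays lay within the single knockout range. The difference was 0.29 (SE 0.29, 95% interval -0.41 to 1.00, limma adjusted p = 0.888, exact permutation p = 0.7). Without double knockout replicate 1 it was -0.05 (95% interval -0.35 to 0.24, limma adjusted p = 0.962). In fold terms the interval with all arrays ran from 0.752 to 1.99, so a level of up to 1.99 times that of the single knockout was not excluded at this spread. The dimmer Rspo3 probe set differed by -0.10 (SE 0.13, limma adjusted p = 0.939 over all probe sets), opposite in sign to the brighter one. Without double knockout replicate 1 the dimmer one differed by -0.22 (SE 0.10). RNA of whole embryos was measured, so fewer cells of a type and less RNA per cell cannot be told apart in any of these values.

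Rspo1, known for its part in ovary determination, read 7.05, 6.63 and 6.59 in double knockout replicates 1, 2 and 3, against 6.68, 6.61 and 6.65 in the single knockout. Again only replicate 1 stood above the single knockout arrays, which spread by an SD of 0.04 around 6.64. The difference was 0.11 (SE 0.13, 95% interval -0.19 to 0.42, limma adjusted p = 0.898, exact permutation p = 0.9). It was -0.04 without double knockout replicate 1 (95% interval -0.18 to 0.10, limma adjusted p = 0.939).

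Rspo2, which acts in limb and lung development, read 5.65, 5.72 and 5.84 on its brighter probe set in double knockout replicates 1, 2 and 3, against 5.76, 5.66 and 5.68 in the single knockout. The groups overlapped and all 6 values were within 0.19 log2 units. The difference was 0.04 (SE 0.07, 95% interval -0.13 to 0.20, limma adjusted p = 0.931), and 0.08 without double knockout replicate 1. The dimmer Rspo2 probe set read 3.70, 5.19 and 4.52 in the double knockout, against 4.73, 5.23 and 5.22 in the single knockout. On it double knockout replicates 1 and 3 lay below every single knockout array and replicate 2 lay among them. Its difference was -0.59 (SE 0.36, 95% interval -1.44 to 0.27, limma adjusted p = 0.920 over all probe sets), opposite in sign to the brighter one, and -0.20 without double knockout replicate 1. The probe sets of Rspo2 therefore disagree, and neither passed.

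The Lgr receptors had differences of opposite sign without double knockout replicate 1, and neither passed. Lgr4, the broadly expressed R-spondin receptor, read 9.94, 10.13 and 10.17 in double knockout replicates 1, 2 and 3, against 9.96, 9.80 and 9.91 in the single knockout. Replicates 2 and 3 lay above every single knockout array, and replicate 1 lay just under the highest of them. The difference was 0.19 (SE 0.08, 95% interval -0.01 to 0.39, limma adjusted p = 0.872, exact permutation p = 0.2), a fold of 1.14. Its unadjusted p, 0.0562, was the smallest of the 8 genes. Without double knockout replicate 1 the difference was 0.26 (SE 0.07, 95% interval 0.09 to 0.43, limma adjusted p = 0.701). The other Lgr4 probe set, dim at 4.43 to 4.63, differed by 0.05 (SE 0.07).

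Lgr5, a receptor best known as a stem cell marker of the adult gut, read 6.89, 6.07 and 6.32 in double knockout replicates 1, 2 and 3, against 6.49, 6.49 and 6.33 in the single knockout. Replicate 1 was the highest of all arrays and replicates 2 and 3 were the lowest, replicate 3 only just. The double knockout arrays therefore lay on either side of the single knockout. The difference was -0.01 (SE 0.20, 95% interval -0.50 to 0.47, limma adjusted p = 0.991, exact permutation p = 0.9). Without double knockout replicate 1 it was -0.24 (SE 0.10, 95% interval -0.48 to -0.01, limma adjusted p = 0.739). The other Lgr5 probe set, at 4.36 to 4.54, differed by 0.0014 (SE 0.07) with all arrays and by -0.04 without that one.

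The ligases had lower means in the double knockout without passing. Rnf43 read 4.80, 4.41 and 4.80 in double knockout replicates 1, 2 and 3, against 5.20, 4.74 and 5.02 in the single knockout. The lowest single knockout array lay just below double knockout replicates 1 and 3, so the groups overlapped. The difference, -0.31 (SE 0.15, 95% interval -0.68 to 0.05, limma adjusted p = 0.872, exact permutation p = 0.3), had the greatest size of the 8 genes, and it was -0.38 without double knockout replicate 1 (limma adjusted p = 0.762). Rnf43 was dim, with group means of 4.67 and 4.99 in double and single knockout, below the array medians of 5.79 to 5.82.

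Znrf3, the other ligase, read 8.27, 8.23 and 8.15 in double knockout replicates 1, 2 and 3, against 8.26, 8.17 and 8.41 in the single knockout. The groups overlapped, with double knockout replicate 3 the lowest array and single knockout replicate 3 the highest. The difference was -0.07 (SE 0.08, 95% interval -0.26 to 0.12, limma adjusted p = 0.905), a fold between 0.838 and 1.09. Without double knockout replicate 1 it was -0.09. The second Znrf3 probe set differed by -0.02 (SE 0.08).

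Notum read 6.60, 6.28 and 6.35 in double knockout replicates 1, 2 and 3, against 6.58, 6.43 and 6.45 in the single knockout. Double knockout replicate 1 was level with the highest single knockout array, and replicates 2 and 3 lay below all of them. The difference was -0.08 (SE 0.10, 95% interval -0.32 to 0.15, limma adjusted p = 0.904), and it was -0.18 (SE 0.07, limma adjusted p = 0.740) without double knockout replicate 1. Rnf43, Znrf3 and Notum are on chromosome 11 in RefSeq, as is Fzd2. What this location has to do with their values was not tested.

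**Figure D2:**
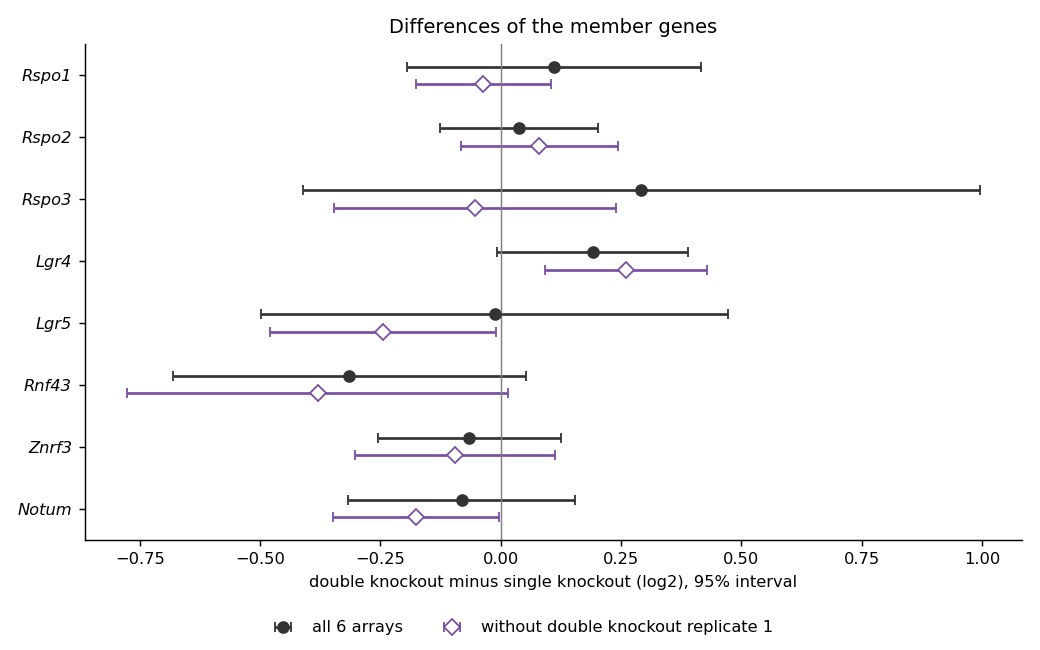
Difference between double and single knockout (x axis, log2) for each gene, as points with 95% intervals from limma, with all 6 arrays (filled circles) and without double knockout replicate 1 (open diamonds). All intervals with 6 arrays cover 0. Without that array those of Lgr4 (0.09 to 0.43), Lgr5 (-0.48 to -0.01) and, barely, Notum (-0.35 to -0.0038) do not, before adjustment over genes.

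With double knockout replicate 1 left out, Lgr4 still had the smallest unadjusted p of the 8 genes. The order of the genes behind it changed, and none passed the adjusted threshold. Lgr4, Lgr5 and Notum then had an unadjusted p under 0.05 (limma, 0.00879, 0.0436 and 0.0465), 3 of 8 against 6.67% of all genes. The same 3 genes had groups that did not overlap, against 22.3% of all genes with 2 arrays set against 3. Lgr4 was on the higher side and Lgr5 and Notum on the lower. For Lgr5, double knockout replicate 3 (6.32) lay just below the lowest single knockout array (6.33). With every probe set tested, the unadjusted p of Notum in this setting was 0.0550 (limma). Over all genes the smallest adjusted p of the 8 was 0.701, and 1 gene, Fzd2, was called (0.0055%). In this setting 2 of the 8 differences were above 0 and 6 below.

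Double knockout replicate 1 was above all other 5 arrays for Rspo1, Rspo3, Lgr5 and, narrowly, Notum, and narrowly below all of them for Rspo2. Over all genes 25.3% were above and 29.5% below in this array. On its brighter probe set Rspo3 differed there by 1.01 log2 units from the mean of the other 5, a deviation that 2.62% of genes matched or exceeded. In that array the dimmer Rspo3 probe set lay 0.22 above the mean of the other 5. For Lgr5 the deviation was 0.55 and for Rspo1 0.42. Lgr4, Rnf43 and Znrf3 lay within the range of the other arrays.

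Markers of tissues moved most in the same array. The mean of 6 epiblast markers, which include Pou5f1 and Nanog, was 6.76 in double knockout replicate 1 against 5.22 to 5.85 in the other 5 arrays, with 4 of 6 genes above all other arrays and 1, Tdgf1, below them (5.87 against 6.52 to 7.43). For the primitive streak and presomitic mesoderm, tissue in which R-spondin and Wnt signalling act, the mean of 6 markers was 6.97 against 6.43 to 6.67, with 5 of 6 above and 1 below. Yolk sac visceral endoderm markers (11.65 against 8.53 to 8.99, 5 of 5 above) and placental markers (6.60 against 3.80 to 4.15, 3 of 4 above) were also high. Gut endoderm markers read 9.41 against 8.87 to 9.09, with 3 of 4 above. All markers measured of somite (6.15 against 7.09 to 7.72), neural (7.27 against 8.67 to 9.08), heart (8.62 against 10.60 to 10.79) and endothelial tissue (7.58 against 8.22 to 8.51) were below the other arrays in it. Primitive red cell markers averaged 5.21 in it and 8.49 in double knockout replicate 3, against 11.25 to 11.84 in the remaining arrays. In double knockout replicates 2 and 3 the epiblast mean was 5.74 and 5.85, above the single knockout arrays (5.22 to 5.43). Their somite (7.09 and 7.11 against 7.20 to 7.72) and neural means (8.67 and 8.67 against 8.74 to 9.08) were below. For each other list at least 1 of these arrays lay within the single knockout range. Leaving out replicate 1 therefore does not remove every tissue difference between the groups. In the single knockout arrays the means of the somite, neural, heart, endothelial and red cell markers all lay above the array medians. So did those of primitive streak, yolk sac and gut endoderm markers, while epiblast and placental means lay below. The medians cover all probe sets and the markers only the brightest ones, so this does not check the label whole embryo. The part of these tissue differences in the values of the 8 genes, with or without replicate 1, was not tested.

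**Figure D3:**
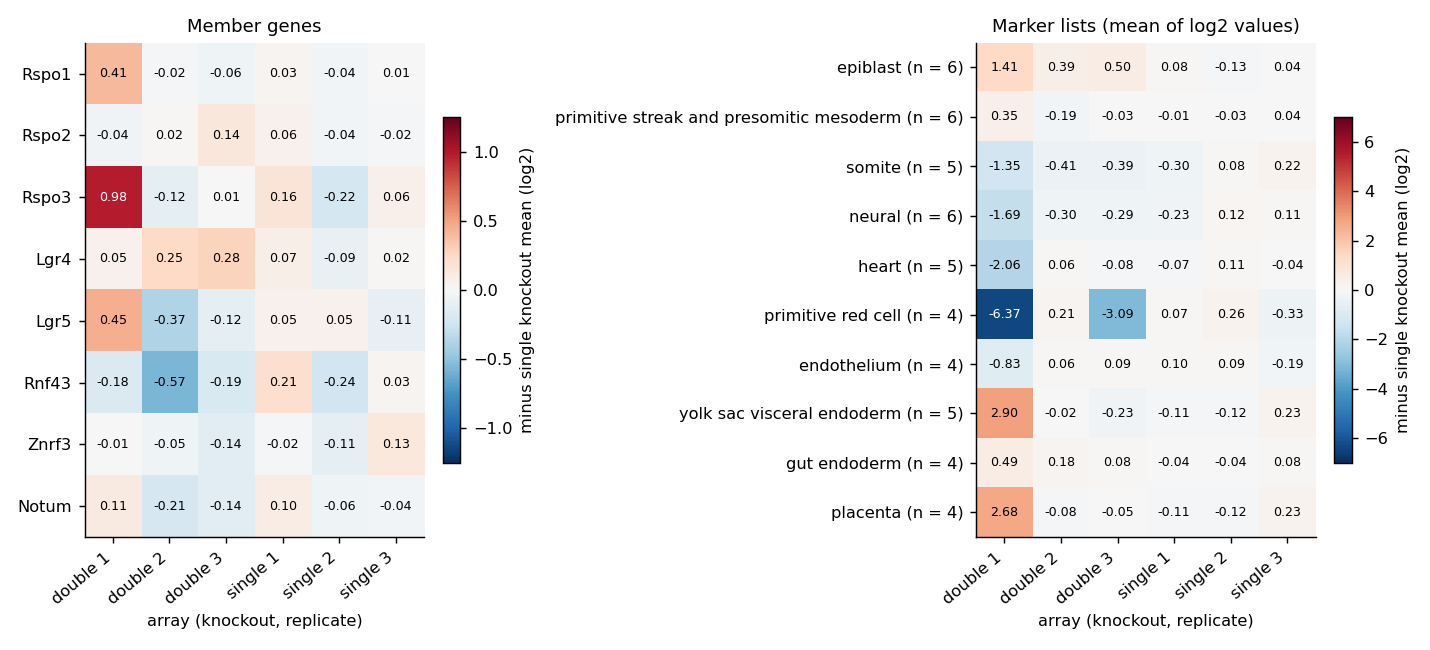
Value of each array minus the single knockout mean (log2, colour and printed number) for the 8 genes (left) and for the mean of each marker list (right, n is the number of genes measured), with separate colour scales. Double knockout replicate 1 (first column of each panel) holds the strongest colours, 0.98 for Rspo3 and -6.37 for primitive red cell markers. Replicates 2 and 3 of the double knockout were high for Lgr4 (0.25 and 0.28).

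Other genes of the pathway, listed by role, also gave no call except Fzd2. Of 33 listed genes 31 were measured, 11 with a higher and 20 with a lower mean in the double knockout, and 1 passed the test, lower (limma, 0.0055% of all genes). Their median difference was -0.05, against -0.01 over all genes. Without double knockout replicate 1 the means of 12 were higher and of 19 lower, with a median of -0.03. Groups did not overlap for 7 of 31, against 11.4% of all genes, and Fzd2 is among the 7. Tcf7 and T were not analysed here.

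Of 12 Frizzled and Lrp genes, the proteins that Rnf43 and Znrf3 clear, 3 had a higher and 9 a lower mean. Their median difference was -0.13 (-0.03 without double knockout replicate 1). The 1 called lower was Fzd2, whose knockout defines the comparison. Fzd7, knocked out in both groups, is also among the 9. Fzd10 read 8.19, 7.95 and 8.03 in double knockout replicates 1, 2 and 3, against 8.24, 8.23 and 8.22 in the single knockout, and did not pass (-0.18, SE 0.07, limma adjusted p = 0.872; -0.24 without double knockout replicate 1). All its double knockout arrays lay below all single knockout arrays. Fzd8 differed by -0.21 (SE 0.11), Fzd5 by 0.24 (SE 0.21), Fzd6 by 0.11 (SE 0.17) and the co-receptor gene Lrp6 by 0.04 (SE 0.14).

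Among 6 genes of the R-spondin and Lgr families and of cell surface proteoglycans, 2 had a higher and 4 a lower mean, and 0 passed. Rspo4 differed by 0.0017 (SE 0.11). The syndecan gene Sdc4 differed by -0.13 (SE 0.07), and the glypican genes Gpc3, Gpc4 and Gpc6 by 0.09, -0.19 and -0.14. Of the 3 Dishevelled genes, whose proteins carry the signal from Frizzled, Dvl1 and Dvl2 differed by -0.05 and -0.09 and Dvl3 by 0.13, and 0 passed.

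Genes for making and disabling Wnt ligands included one that was higher in each double knockout array. Wls, which carries Wnt proteins to the cell surface, read 10.85, 10.71 and 10.68 in double knockout replicates 1, 2 and 3, against 10.58, 10.51 and 10.50 in the single knockout. The groups did not overlap, yet the difference of 0.22 (SE 0.07) did not pass (limma adjusted p = 0.872). It was 0.17 without double knockout replicate 1. Porcn, the enzyme that acylates Wnt, differed by 0.10 (SE 0.08), and Trabd2b, which encodes a Wnt-cleaving protease, by -0.10 (SE 0.07).

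Of 7 measured targets of beta-catenin, 3 had a higher and 4 a lower mean, with a median of -0.01, and 0 passed. Ccnd1, which encodes cyclin D1, read 10.60, 10.42 and 10.59 in double knockout replicates 1, 2 and 3, against 10.83, 10.84 and 10.88 in the single knockout. Its groups did not overlap, and the difference was -0.31 (SE 0.07, limma adjusted p = 0.872), or -0.34 without double knockout replicate 1. The feedback inhibitor gene Nkd1 differed by -0.20 (SE 0.08), also with groups that did not overlap. Lef1, a DNA-binding partner of beta-catenin, differed by -0.19 (SE 0.11). On the other side Cdx1, a regulator of posterior identity, read 9.27, 7.08 and 7.56 in the double knockout, against 7.50, 6.92 and 7.28 in the single knockout. As for Rspo3, replicate 1 alone stood well above the other arrays, and the difference of 0.73 (SE 0.54) was 0.08 without it. Dkk1 and Sp5 differed by 0.34 (SE 0.16) and 0.21 (SE 0.20).

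**Figure D4:**
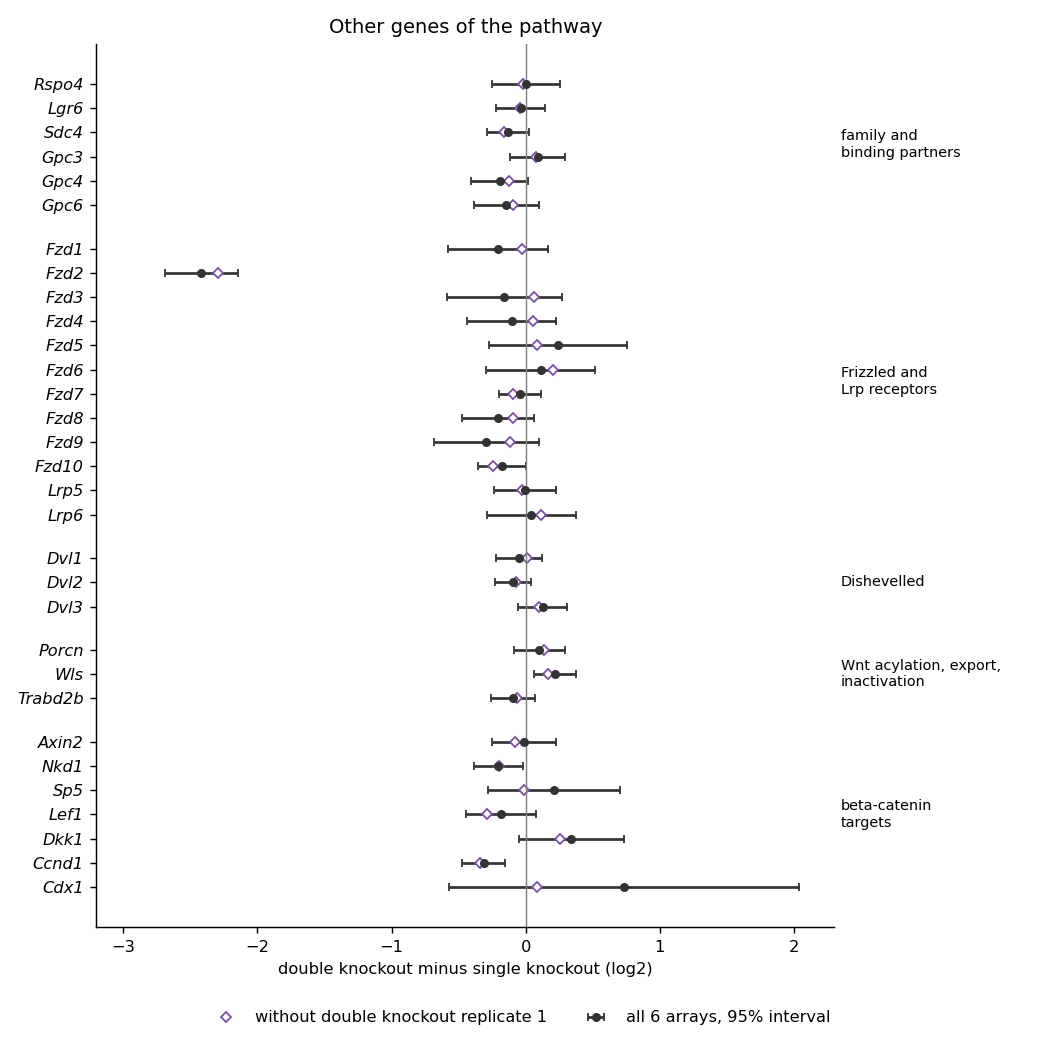
Difference between double and single knockout (x axis, log2) for the 31 measured genes of the 5 pathway lists, with 95% limma intervals over all 6 arrays (filled circles) and the difference without double knockout replicate 1 (open diamonds). Fzd2, at -2.42, is far from the rest. Cdx1 moves between the settings, at 0.73 and 0.08.

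The genes closest in pattern were found for the 3 genes whose values spanned more than 0.5 log2 units, by the mean absolute difference between values centred on each gene's own mean over the 6 arrays. Nearest to Rspo3 were Aqp11 (0.061), Slc9a3r1 (0.068) and Gbx2 (0.069), the last a transcription factor gene of the hindbrain border and posterior embryo. Gbx2 read 9.28, 8.17 and 8.49 in double knockout replicates 1, 2 and 3, against 8.39, 8.04 and 8.23 in the single knockout. Nearest to Lgr5 were Slc25a10 (0.055), Pcdhb12 (0.056) and Tatdn2 (0.057). Nearest to Rnf43 was Fgf17 (0.053), a fibroblast growth factor gene, followed by Marchf9 (0.075) and Pigbos1 (0.077). Fgf17 read 6.29, 6.12 and 6.34 in the double knockout, against 6.79, 6.34 and 6.66 in the single knockout. As for Rnf43, replicate 2 was the lowest array of each group for Fgf17. These likenesses rest on 6 arrays, of which double knockout replicate 1 sets most of the span for Rspo3.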

How the data were processed

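Whole-embryo RNA was measured on 6 single-colour arrays, 3 per genotype, with groups and replicate numbers taken from sample titles. The values are on a log2 scale, as the authors deposited them in 1 table of 45101 probe sets. The submitters' processing notes name RMA (robust multi-array average), with no version. RMA compresses differences near background. The 34945 probe sets with 1 gene symbol in the platform annotation gave 18193 genes, each represented by its brightest probe set. Double knockout minus single knockout was tested with lmFit and eBayes of limma 3.58.1 (R 4.3.3), two-sided and without covariates, with Benjamini-Hochberg adjustment over all genes and a threshold of 0.05. Single genes also had an exact two-sided permutation test over 20 splits, whose smallest p is 0.1. The replicate numbers have no stated meaning, so no pairing was used in the main test. Same-numbered samples did not deviate together (r = 0.094, -0.037 and -0.13), which cannot show that they were unpaired. Differently numbered samples of the 2 groups had r from -0.15 to 0.28, the highest for double knockout replicate 3 with single knockout replicate 2. The script was tested on simulated data.

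The members and lists were chosen with earlier results of these data known. The text names the 8 genes, Fzd2 and Fzd7, from each of 5 pathway lists members past the threshold and up to 3 per direction by smallest unadjusted p, and the 3 genes nearest in pattern to a gene spanning over 0.5 log2 units. Marker lists numbered 10. Some listed markers were not analysed here. Alternatives were the replicate block, an intensity trend with robust moderation, a filter on low values, every probe set, the mean of probe sets, array weights, median centring, a second quantile normalization and leaving out each array.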

Additional observations from a re-analysis of the deposited data

How the results depend on the processing

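None of the 8 genes passed an adjusted p of 0.05 in any of 14 alternatives (limma, smallest adjusted p 0.693), and 97 of 107 values kept their direction. Many of these could not change direction. The replicate block, the intensity trend, the filter and every probe set return the main difference unchanged. So does the mean of probe sets for Rspo1, Rnf43 and Notum, which have a single probe set. Lgr4 stayed above 0 (0.12 to 0.26), and Rnf43 (-0.44 to -0.19) and Notum (-0.18 to -0.02) stayed below 0. Leaving out each array in turn gave ranges of -0.036 to 0.19 for Rspo1, -0.013 to 0.080 for Rspo2, -0.054 to 0.50 for Rspo3, -0.24 to 0.17 for Lgr5 and -0.12 to 0.00052 for Znrf3, each crossing 0. The mean of probe sets turned Rspo2 to -0.27, where its probe sets disagree, and a second quantile normalization turned Lgr5 to 0.0035, against -0.013 with the values as deposited. The filter on low values left out 5 of the 8 genes, so it gave them no value. The count of genes called lower, 1, was 2 probe sets, both of Fzd2, when every probe set was tested, and 0 with the mean of probe sets; for the listed pathway genes that setting also gave 0. Leaving out an array gave 0 to 1 for both counts. With the replicate block no call among the 8 genes changed, and 1 gene, Fzd2, stayed called (adjusted p = 0.0233). The labels give no meaning to the number shared by samples.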
